A study of Mus musculus with 2 samples.

Results

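In 403 places on the mouse autosomes, 1 CTCF peak called in embryonic stem cells (ESC) overlapped 2 or more separate CTCF peaks called in neural precursor cells (NPC). They were chosen by the positions of the called peaks in both lists, by counting, for each of the 52656 autosomal ESC peaks, the NPC peaks that overlapped it by at least 1 bp, so that the members made up 0.765% (95% interval 0.693 to 0.844) of those peaks. This percentage is fixed by the rule and nothing is read from it. Of the members, 398 overlapped 2 NPC peaks and 5 overlapped 3, which together took in 811 of the 50195 autosomal NPC peaks, each under 1 member only. Of the other autosomal ESC peaks, 38649 overlapped 1 NPC peak and 13604 overlapped none.

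The lists came from chromatin immunoprecipitation with an anti-CTCF antibody and SOLiD sequencing of 1 library per cell type. The ESC were E14Tg2A (E14) cells of the line IB10, grown in serum-containing, BRL-conditioned medium with leukemia inhibitory factor, which keeps them undifferentiated. The NPC were derived from E14 ESC and grown on gelatin with N2 supplement, basic FGF and EGF. Neither the labels nor the lists describe a genetic change or a treatment in either group, and a peak list holds no expression with which to check the cell types. All positions are on mm9. With 1 library per cell type the spread between cultures is unknown, and no difference between the cell types was tested. A range after a share is an exact 95% binomial interval, and a range after a median is the interquartile range unless it is called a 95% interval. These intervals reflect the number of peaks alone.

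CTCF is a DNA-binding protein with a row of zinc fingers that reads a long, directional motif. It marks many insulators and the anchors of chromatin loops, where it halts the cohesin ring as loops are drawn in, and the orientation of the motif matters for which anchors pair. Some anchors carry several CTCF motifs close together. Immunoprecipitated fragments reach past the bound motif on both sides, so motifs a short way apart can give 1 wide peak or separate narrow ones. The ESC peaks described here are thus candidates for closely paired CTCF sites that were separated in one list only. No mm9 sequence was used here, so whether each NPC peak holds its own motif, and how such motifs are oriented, was not examined.

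The members were wide ESC peaks. Their width was 1216 bp in the median (interquartile range 1019 to 1392, full range 392 to 2257), against 621 bp (519 to 712) for ESC peaks over 1 NPC peak and 459 bp (379 to 534) for those over none. A width of 1000 bp or more was seen in 308 of the 403 members (76.4%), against 1.68% of all autosomal ESC peaks. Only 11 members were narrower than the median of the whole ESC list. Width is tied to the rule, since a longer interval can touch more peaks, and these values therefore describe the members and test nothing.

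The share of ESC peaks that took in several NPC peaks climbed steeply with width. It was 0.217% (0.126 to 0.346) from 700 to 799 bp and 4.58% (3.04 to 6.60) from 900 to 999 bp. From 1000 to 1199 bp it was 18.4% (15.2 to 22.1), and from 1200 to 1399 bp it was 49.6% (42.96 to 56.2). In the bin from 1400 to 1599 bp, 75 of 105 ESC peaks (71.4%, 61.8 to 79.8) were members. The 33 peaks of 1600 bp or more gave 69.7% (51.3 to 84.4), which did not differ from the bin before it beyond the intervals. The other 10 of these 33 each lay over a single NPC peak, so great width did not always go with a split in NPC.

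**Figure D1:**
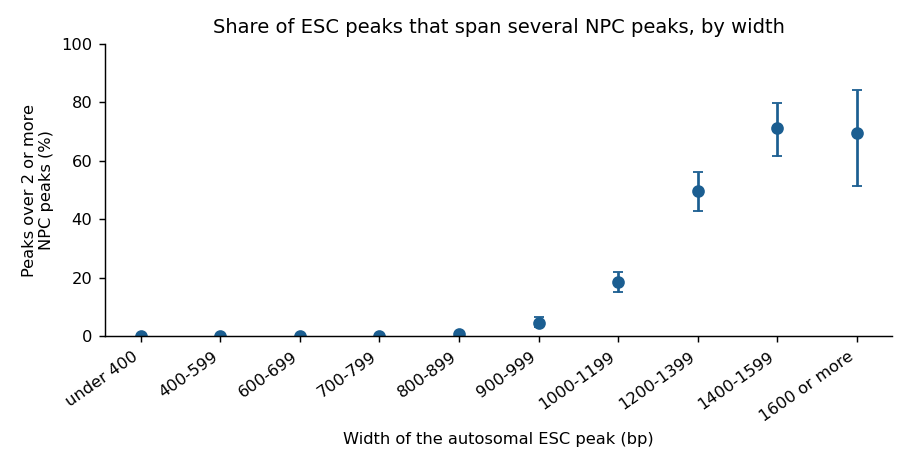
Share of autosomal ESC peaks that overlap 2 or more NPC peaks (y axis, percent) in bins of ESC peak width (x axis, bp); points are shares and bars are exact 95% binomial intervals. The share stays under 1% up to 899 bp and reaches 49.6% from 1200 to 1399 bp and 71.4% from 1400 to 1599 bp.

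Inside the members, the NPC peaks lay on either side of the ESC centre. Measured along the ESC peak from its lower coordinate, the first NPC centre was at 25.3% of the ESC width (interquartile range 21.5 to 30.4) and the last at 74.2% (69.97 to 78.6). The point midway between them was at 49.7% (46.4 to 53.9), close to the ESC centre. The NPC peaks covered 77.0% (69.5 to 83.7) of the ESC peak, and in 275 members (68.2%) all NPC peaks lay wholly inside it. The ESC peak reached a median of 79 bp past the outer edge of the NPC peaks on the lower side and 71 bp on the higher side. In the median member the NPC peaks thus lay along most of the ESC peak, with a short margin on both sides. NPC peaks of like width that do not overlap and fill most of an ESC peak must lie near such places. The positions therefore describe the members and test nothing.

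The NPC peaks themselves were of ordinary width. Their median was 458 bp (369.5 to 559), against 464 bp (377 to 551) for NPC peaks that were alone under an ESC peak and 435 bp over all autosomal NPC peaks. Whether they are separate sites or pieces of 1 wide region was not tested.

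**Figure D2:**
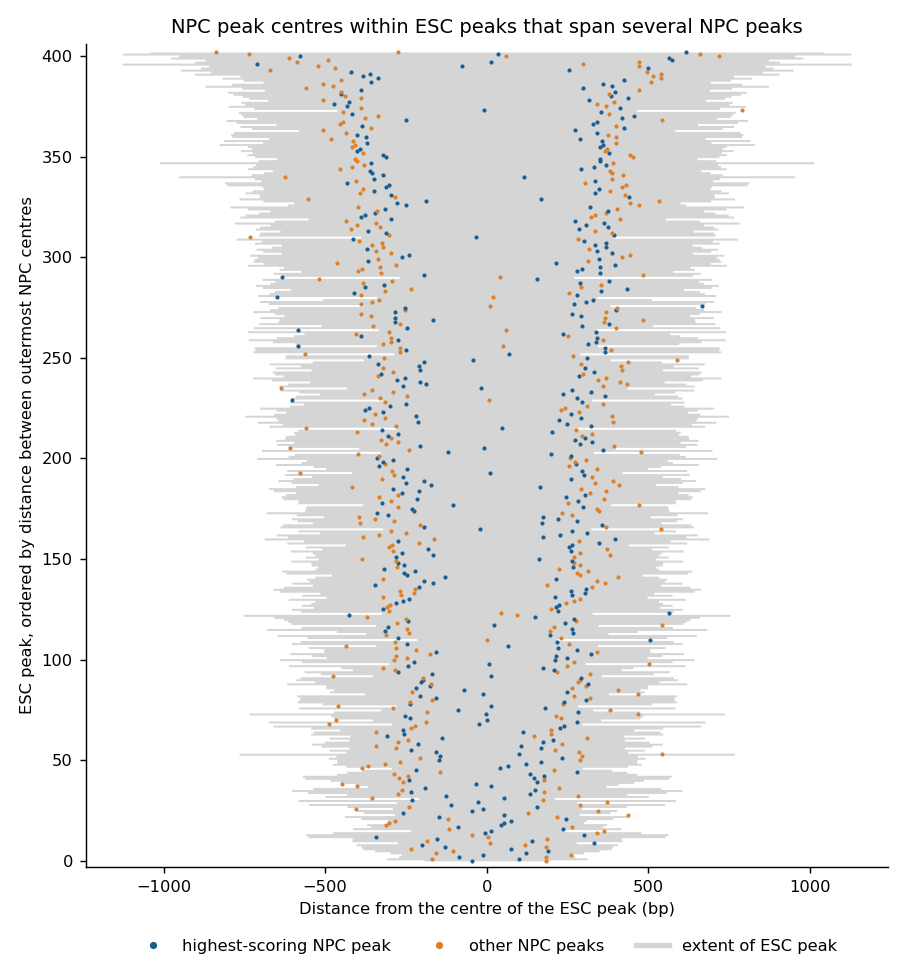
Each row is 1 of the 403 ESC peaks, ordered from the smallest to the largest distance between its outermost NPC centres; the x axis is the distance from the ESC centre in bp, grey marks the extent of the ESC peak, blue the centre of its highest-scoring NPC peak and orange the other NPC centres. Most rows show a centre on each side, at 25.3% and 74.2% of the ESC width in the median, and the 38 members with an NPC centre outside the ESC peak appear as points beyond the grey.

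Not every member spanned its NPC peaks in full. In 365 members (90.6%) all NPC centres lay inside the ESC peak, and in the other 38 (9.43%) at least 1 NPC centre lay outside it. These 38 were narrower, with a median of 658 bp (577 to 750) against 1247 bp (1088 to 1409) for the 365. Of the 38, 14 had an NPC peak that also overlapped the next ESC peak, which none of the 365 had, so in those 14 the lists drew the borders of neighbouring peaks at different places. At the limit of the rule, the 5 members with the least overlap touched their second NPC peak by 2 to 8 bp, and the 5 ESC peaks that came closest to joining missed it by 0 to 3 bp. In all, 25 members had an overlap under 50 bp, and 68 ESC peaks over 1 NPC peak had another NPC peak less than 50 bp from their edge.

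The outermost NPC centres of a member were a median of 596 bp apart (interquartile range 497 to 683.5, range 229 to 1453.5). The distances were concentrated: 77 members lay from 400 to 499 bp, 99 from 500 to 599 bp, 108 from 600 to 699 bp and 61 from 700 to 799 bp. Below 300 bp there were 6, and at 1000 bp or more there were 7. The lower end is limited by the width of the NPC peaks, because peaks of one list do not overlap each other. The gap between the edges of neighbouring NPC peaks was short, with a median of 98 bp (38.5 to 184), and it was under 50 bp in 127 members (31.5%) and under 200 bp in 317 (78.7%). Wider members held NPC peaks farther apart (Spearman's rho 0.78 across the 403 members, which share the same libraries and where the distance is bounded by the width).

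How often closely spaced NPC peaks fell together in the ESC list varied with their distance. Of all 944 neighbouring NPC pairs with centres less than 800 bp apart, 383 (40.6%, 37.4 to 43.8) shared an ESC peak, 262 (27.8%) overlapped 2 different ESC peaks, 204 (21.6%) had an ESC peak at only 1 of the pair and 95 (10.1%) at neither. From 400 to 499 bp, 79 of 125 pairs (63.2%) shared an ESC peak. From 600 to 699 bp, 111 of 277 did (40.1%), and from 700 to 799 bp, 62 of 291 (21.3%). From 800 to 999 bp only 22 of 586 pairs (3.75%) shared an ESC peak while 353 (60.2%) had 2 ESC peaks of their own, and from 1200 bp to 1499 bp none of 815 did, for which the exact 95% interval reaches 0.452% and the limit of 3 counts is 0.368%. The change from shared to separate ESC peaks thus fell between about 600 and 800 bp.

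Seen from the other side, neighbouring ESC peaks seldom fell together in the NPC list. There were 661 neighbouring ESC pairs with centres less than 800 bp apart, fewer than the 944 NPC pairs although the ESC list is longer. Of these, 33 (4.99%, 3.46 to 6.94) shared an NPC peak and 257 (38.9%) overlapped 2 NPC peaks. Another 251 (38.0%) had an NPC peak at only 1 of the pair and 120 (18.2%) at neither, so part of the contrast with NPC pairs lies in missing partners. Among pairs where both overlapped a peak of the other list, 33 of 290 ESC pairs shared one (11.4%, 7.96 to 15.6), against 383 of 645 NPC pairs (59.4%, 55.5 to 63.2). From 400 to 499 bp few ESC pairs were covered at both, and 5 of 9 of them shared an NPC peak (55.6%, 21.2 to 86.3), against 79 of 91 NPC pairs (86.8%, 78.1 to 92.996), so the intervals overlapped there. From 600 to 699 bp the shares were 12 of 88 (13.6%, 7.25 to 22.6) and 111 of 179 (62.0%, 54.5 to 69.1). ESC peaks were also the wider ones over the whole autosomal lists, with a median of 577 bp against 435 bp for NPC peaks. How much of the contrast goes with this width was not tested.

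**Figure D3:**
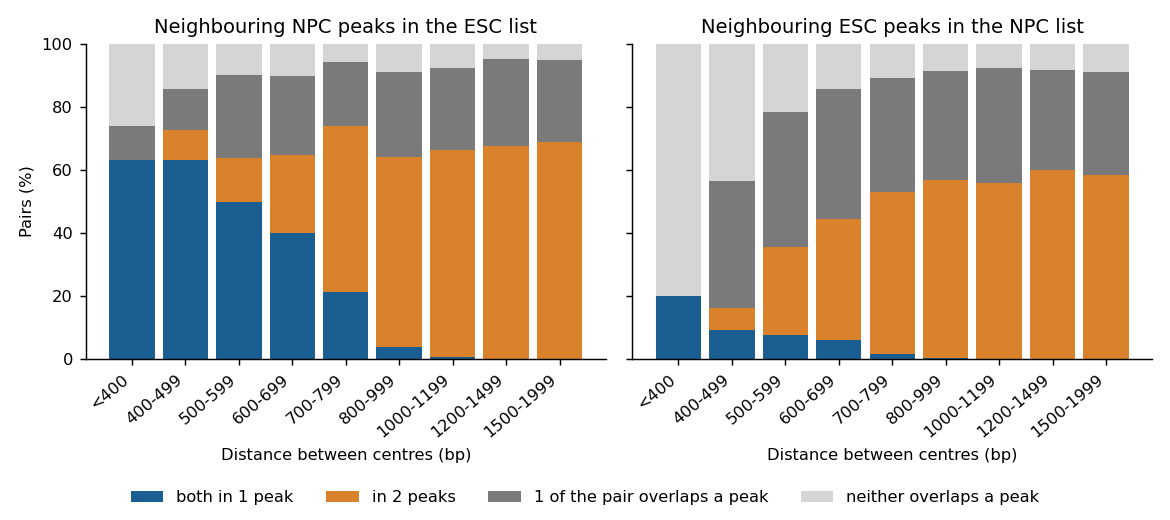
Stacked bars give, for neighbouring autosomal peaks of one list in bins of centre distance (x axis, bp), the percent of pairs (y axis) that share 1 peak of the other list, overlap 2 peaks, have a peak at 1 of the pair, or at neither; NPC pairs are on the left and ESC pairs on the right. The blue part falls from 63.2% at 400 to 499 bp to 3.75% at 800 to 999 bp for NPC pairs, and is at most 20.0% in any bin for ESC pairs.

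The converse arrangement was rare. On the autosomes 36 NPC peaks (0.0717% of them) overlapped 2 ESC peaks, and none overlapped 3. This class is not separate from the members. In the 14 members above, the NPC peak that also overlapped the next ESC peak belongs to it. The sub-peak centres there were a median of 632 bp apart (503 to 667), and the gap was 28.5 bp (14.5 to 55), shorter than the 98 bp of the members. The gaps here lie between ESC peaks, which are wider in general, and those of the members between NPC peaks. Many were contacts at an edge: in 16 of the 36 both ESC centres lay inside the NPC peak. Of the 5 whose lower-scoring ESC peak scored highest, the clearest lay on chromosome 7 (88306548 to 88307737), where an NPC peak of 1190 bp with a score of 2260 took in ESC peaks that scored 1662 and 1209 and were 1 bp apart. The others lay on chromosome 4 (111558984 to 111559669), chromosome 11 (48588132 to 48588831), chromosome 19 (45156446 to 45157161) and chromosome 7 (117307632 to 117308206), and were between 575 and 716 bp wide. The peak on chromosome 19 is also the second NPC peak of a member named below.

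Each peak carries a score given by the authors. The files do not say how it was computed, and levels are therefore compared within a list only. Members scored high in the ESC list. Their median score was 1784 (1180 to 2419), against 749 (366 to 1204) for ESC peaks over 1 NPC peak. In ranks, the median member stood at percentile 94.7 of the ESC list (80.6 to 98.7), and 245 members (60.8%) were above percentile 90, as were 10.3% of all autosomal ESC peaks. Only 23 members (5.71%) scored below the ESC median. Scores pile up at 3100, and 31 members (7.69%) were at or above that value, against 0.492% of ESC peaks over 1 NPC peak.

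Score and width went together among the members (Spearman's rho 0.70), and at equal width the members' 95% interval lay above that of ESC peaks over 1 NPC peak in none of 4 bins. From 800 to 999 bp, the 46 members had a median of 1147 (95% interval 864 to 1440) and the 2784 others 1566 (95% interval 1539 to 1596). From 1000 to 1199 bp, the 95 members had a median of 1564 (95% interval 1352 to 1724) and the 397 ESC peaks over 1 NPC peak a median of 1778 (95% interval 1707 to 1880). From 1200 to 1399 bp the medians were 2068 (95% interval 1829 to 2274) in 115 members and 2189 (95% interval 1914 to 2329) in 114 others, and from 1400 to 1599 bp they were 2401 (95% interval 2194 to 2658) in 75 and 2247 (95% interval 1871 to 2669) in 29. Among ESC peaks of 1000 bp or more, 228 of 615 (37.1%) were members in the highest of 10 score bins, 13 of 46 (28.3%) in the 7th and 2 of 17 (11.8%) in the 6th, and none of the 11 in the 5th. The members' scores were thus in the range of wide ESC peaks or, from 800 to 999 bp, below it.

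In the NPC list the peaks of a member often differed in score. The lower-scoring NPC peak had a median of 269 (158 to 591), which is percentile 38.5 of the NPC list, and the higher-scoring one a median of 991 (533 to 1436), percentile 79.8. The lower score was 0.439 of the higher in the median (0.234 to 0.696). The ratio of higher to lower was at least 2 in 224 members (55.6%), at least 5 in 82 (20.3%) and at least 10 in 27 (6.70%). No NPC peak scored below 100.01, so a large ratio was possible only where the higher score was itself high. In 148 members (36.7%) all NPC peaks scored above the NPC median, in 75 (18.6%) all scored below it, and in 180 (44.7%) the NPC peaks fell on different sides. In 105 members (26.1%) the lower-scoring NPC peak was in the lowest 20% of the NPC list. The arrangement thus varied, with no single one in most members, and the balance showed no order with the spacing (Spearman's rho 0.01 between distance and balance across members).

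**Figure D4:**
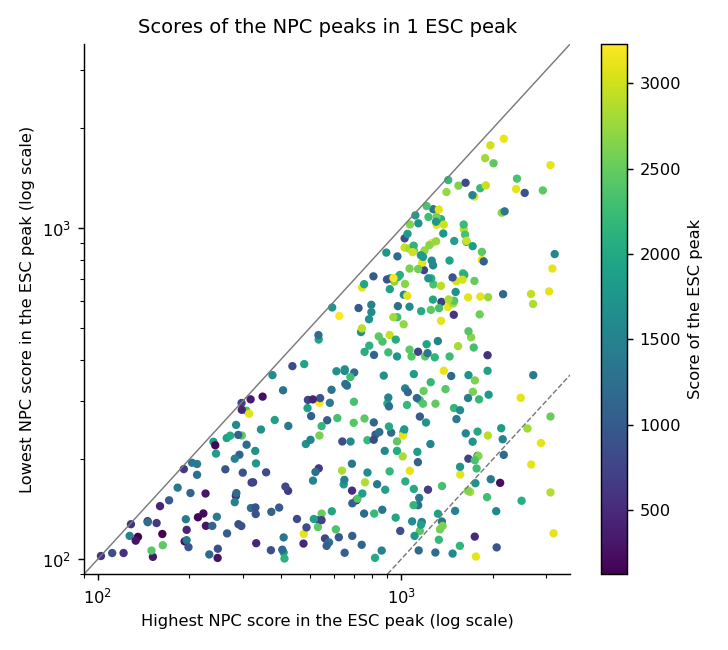
Each point is 1 of the 403 members, with the highest NPC score in the ESC peak on the x axis, the lowest on the y axis (both log scales) and the ESC score as colour; the solid line marks equal scores and the dashed line a ratio of 10. Points spread from the solid line to below the dashed one, with a median ratio of 2.28, and 27 members lie at or below the dashed line.

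The stronger NPC peak had no preferred side, but in most members with 2 NPC peaks the ESC centre lay nearer to it. Of the 398 members with 2 NPC peaks, the higher score was on the lower-coordinate side in 188 (47.2%, 42.2 to 52.3) and on the other in 210. The ESC centre was nearer the higher-scoring NPC peak in 266 (66.8%, 61.97 to 71.4). Where the scores differed at least 2 times it was nearer in 164 of 221 (74.2%, 67.9 to 79.8), and where they differed less, in 102 of 177 (57.6%, 49.99 to 65.0). Over all members the stronger NPC centre was 269.5 bp from the ESC centre in the median (196 to 338) and the weaker 326 bp (269 to 398.5). Where NPC peaks fill most of an ESC peak, its centre tends to lie nearer the wider of them. Their widths were not set against their scores, so how much of this goes with width was not tested. Across members the ESC score went with the higher NPC score (Spearman's rho 0.51) and with the lower one (0.45), and the NPC scores of a member went with each other (0.51). ESC peaks over 1 NPC peak gave 0.62 between the lists. These are descriptions over regions of the same 2 libraries.

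The 5 members over 3 NPC peaks were all wide, from 1721 to 2254 bp, and 3 of them lay on chromosome 6. On chromosome 6 at 70754353 to 70756606, an ESC peak of 2254 bp with a score of 3100 held NPC peaks that scored 902, 1262 and 1183 in order of position, the most even of these sets. At 50888641 to 50890546 the ESC peak scored 2055 and the NPC peaks 756, 622 and 423. At 114876241 to 114877961 the ESC peak scored 2865, and a middle NPC peak of 759 stood between weaker ones of 259 and 170. These sets differ in shape: the first is level, the next declines along the chromosome and the last is highest in the middle. On chromosome 13 (114654540 to 114656624) the ESC score was 3100 and the NPC scores were 236, 992 and 1012, with outer centres 1453.5 bp apart, the largest distance among all members. On chromosome 4 (150338526 to 150340335) the ESC score was also 3100 and the NPC scores were 524, 1351 and 535.

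The 10 members whose weaker NPC peak scored highest are those where both NPC peaks were strong. On chromosome 17 at 73650449 to 73652016, an ESC peak with a score of 3000 held NPC peaks at 73650460 to 73651135 (score 1779) and 73651291 to 73651858 (score 1964), with centres 777 bp apart. On chromosome 3 at 65733228 to 65734663 the ESC score was 2785 and the NPC scores were 1887 and 1627 at 762 bp. On chromosome 13 at 32994116 to 32995595 the ESC score was 2194 and the NPC scores, 1427 and 1397 at 717 bp, were nearly equal. These are even pairs at a spacing above the 596 bp median of the members. On chromosome 10 at 58757816 to 58759623 the NPC scores were 1542 and 1343, with a gap of 184 bp, under an ESC score of 2620.

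Strong NPC peaks also occurred at spacings near the 596 bp median of the members. On chromosome 7 at 127241184 to 127242394 the NPC scores were 1897 and 1346 at 583 bp, and the ESC score was 2972. On chromosome 11 at 98900909 to 98902128 they were 2404 and 1411 at 609 bp (ESC score 2345), and on chromosome 12 at 114455330 to 114456483 they were 2013 and 1570 at 626 bp (ESC score 2456). In these 3 regions the NPC peaks were only 33 to 35 bp apart at their edges. On chromosome 15 at 99245884 to 99247626 the spacing was long, at 861.5 bp, but the NPC peaks of 1550 and 3100 were only 5 bp apart at their edges, under an ESC score of 3100. The last pair of this set were edge contacts. On chromosome 19 (45155551 to 45156476) the ESC peak scored 3125 and ended 31 bp into its second NPC peak, with NPC scores of 2177 and 1862. On chromosome 17 (5402549 to 5403123) the ESC peak scored 822, the NPC scores were 1371 and 1627, and the first NPC peak was touched by 9 bp only.

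Among the 5 members with the largest distance, 2 held only a pair of NPC peaks. On chromosome 16 at 91935193 to 91937148 the NPC centres were 1176 bp apart with a gap of 644 bp, the longest gap of any member, and the scores were 1138 and 1328 under an ESC peak of 3100. On chromosome 6 at 92015893 to 92017634 they were 1062 bp apart with a gap of 499 bp, and scored 471 and 842 (ESC score 2444). In both, one ESC peak ran across a stretch without an NPC peak that was longer than the median NPC peak of 435 bp. The other 3 were over 3 NPC peaks and are given above.

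The 5 members with the smallest distance were narrow and low in ESC score beside most members, and their NPC peaks were mostly weak. Their widths, from 392 to 620 bp, were common in the ESC list, where the autosomal median was 577 bp. The closest NPC centres, 229 bp apart, lay on chromosome 8 at 19853629 to 19854020, in an ESC peak with a score of 127 and NPC scores of 163 and 119. The others were on chromosome 18 (74882558 to 74883177, 269 bp), chromosome 17 (13236698 to 13237242, 270.0 bp), chromosome 1 (92726529 to 92727057, 274.5 bp) and chromosome 5 (14951958 to 14952555, 278 bp). Their ESC scores ranged from 208 to 565, and 9 of the 10 NPC peaks in the 5 members scored below 223. The exception was the first NPC peak on chromosome 17, at 688. Here, unlike in the wide members, the NPC peaks themselves were short, from 144 to 346 bp.

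In the 5 most unequal members a strong NPC peak stood next to one near the bottom of the list. On chromosome 11 at 100142890 to 100144422, an NPC peak of 218 bp with a score of 120 stood 16 bp from one of 3174, a ratio of 26.5, and the ESC score was 3100. On chromosome 15 at 101813675 to 101815570 the NPC scores were 159 and 3100 (ESC score 2882). On chromosome 16 at 95562951 to 95564049 they were 2061 and 108, and the ESC score of 936 was the lowest of the 5. In each of these the weaker NPC peak was the shorter one. The remaining 2 lay on chromosome 2 (101312564 to 101313948, NPC scores 1760 and 102) and chromosome 6 (88810767 to 88812051, NPC scores 2490 and 150).

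The widest member was on chromosome 15 at 79480836 to 79483092, 2257 bp long with a score of 3100, over NPC peaks that scored 1843 and 801 at 1009.5 bp. On chromosome 2 at 28908102 to 28910125 an ESC peak of 2024 bp, also at 3100, held NPC scores of 3145 and 754 at 748 bp. The other 3 of the 5 widest are among the regions above. All 5 had an ESC score of exactly 3100, the value at which scores pile up.

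Wide ESC peaks that were not members fell into different arrangements. Of the 885 autosomal ESC peaks of 1000 bp or more, 308 were members (34.8%, 31.7 to 38.0), 550 lay over 1 NPC peak (62.1%) and 27 over none (3.05%). In 369 of the 550 the NPC centre was within 15% of the ESC width from the ESC centre. The NPC peak there was itself often wide, with a median of 921 bp (747 to 1055). In the other 181 (32.9%, 28.99 to 37.0) the NPC centre lay farther out, as it did in 8.60% of all ESC peaks over 1 NPC peak. There the NPC peak had a median width of 479 bp (415 to 556), beside 458 bp for the NPC peaks in members, and its centre was 20.6% (17.97 to 24.1) of the ESC width from the ESC centre, against 24.7% in members. It lay towards the lower coordinate in 91 and towards the higher in 90. In the 369 regions most NPC peaks were wider than the 435 bp median of all autosomal NPC peaks, but the shortest was 282 bp. In the 181 an off-centre place is fixed by the limit on the offset, and the offsets are given as a description. The limit is also tied to NPC width, since an NPC peak that fills most of an ESC peak cannot lie far off its centre. The widths of the central and off-centre NPC peaks are thus a description too.

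The NPC scores differed between these arrangements. The NPC peak scored 554 (305 to 1032) in the 181 off-centre regions and 1897 (1180 to 2653) in the 369 central ones, beside 1046 (644 to 1484) for the higher-scoring NPC peak of the 308 wide members. The ESC scores had medians of 1574 (1126 to 1992), 2095 (1609 to 2749) and 2026 (1510 to 2577) in the same order. The limit of 15% was chosen with these data in view. That limit is tied to NPC width, and the NPC scores were not compared at equal NPC width.

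**Figure D5:**
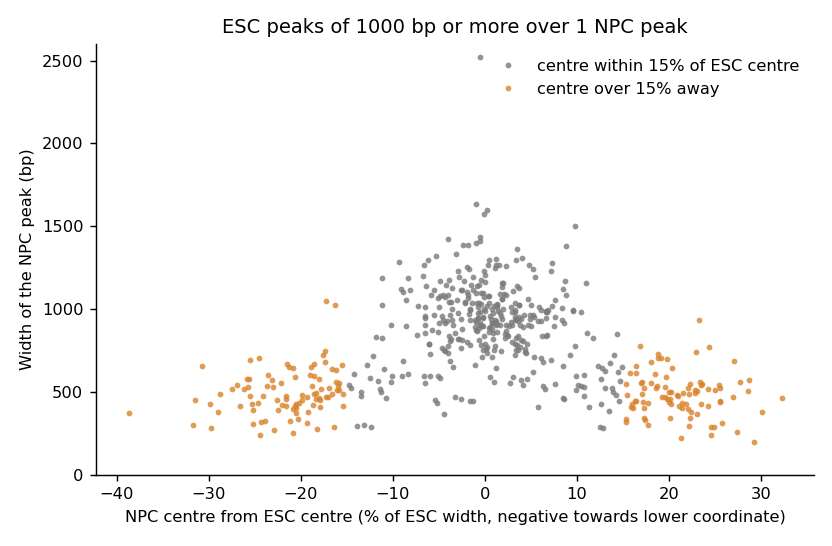
The 550 ESC peaks of 1000 bp or more over 1 NPC peak, by the position of the NPC centre relative to the ESC centre (x axis, percent of the ESC width) and the width of the NPC peak (y axis, bp). Central NPC peaks (grey, 369) have a median width of 921 bp, and those over 15% away (orange, 181) gather on both sides with a median of 479 bp. The limit on the offset is tied to NPC width.

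Within the same distance bin, the NPC pairs that shared an ESC peak had stronger weak partners than pairs with no ESC peak at one of them. From 600 to 799 bp the lower NPC score had a median of 475 (248 to 772) in the 173 pairs within 1 ESC peak, 256 (154 to 457) in the 221 pairs with an ESC peak each and 158 (119 to 220.4) in the 129 pairs of which only 1 overlapped an ESC peak. The pairs within 1 ESC peak also had a shorter gap, 155 bp against 264 bp in pairs with an ESC peak each. Their centres were closer within the bin as well, at a median of 672.5 bp. The pairs with an ESC peak each had 734.5 bp, and those of which only 1 overlapped an ESC peak 694 bp. From 400 to 599 bp the lower scores were 223 (137 to 347), 195 (143 to 307) and 137 (114 to 160) in the same order, so that the first pair of groups overlapped widely there.

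Members occurred on all 19 autosomes, from 10 on chromosome 16 to 48 on chromosome 11. Their share of the ESC peaks was highest on chromosome 11 (1.19%, 0.878 to 1.57) and chromosome 19 (1.14%, 0.676 to 1.79) and lowest on chromosome 6 (0.424%, 0.226 to 0.723) and chromosome 8 (0.440%, 0.227 to 0.767). The interval of chromosome 11 lay above the 0.765% of all autosomes and that of chromosome 6 below it. The intervals of the 19 autosomes were not adjusted for their number, and no chromosome effect is read from them. Chromosome 6 nevertheless held 3 of the 5 members over 3 NPC peaks. Members also lay in denser surroundings: the nearest other ESC peak was 4954 bp away in the median (95% interval 4066 to 5614), against 7703 bp (95% interval 7551 to 7881) for ESC peaks over 1 NPC peak, and 282 members (69.98%, 65.2 to 74.4) had one within 10 kb, against 56.9% (56.4 to 57.4). A near neighbour is partly tied to the rule, since 14 members had an NPC peak that also overlapped the next ESC peak. The 2 classes were not matched for score or width, so these values are a description. In 5 cases the next ESC peak along the chromosome was itself a member.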

How the data were processed

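The authors deposited 1 list of peaks per library, with the position and a score for every peak. According to the track lines, each library's peaks came from MACS, per the file headers, and the build is mm9, as listed in the submitters' processing notes. Aligner, control, MACS version and threshold are not given in the sources at hand. Both track names end in CONTROL, which neither the files nor the labels explain, and the lists were read as CTCF peaks because the labels say so. How the score was computed is not stated. Without read counts, summits or strand, the depth is unknown.

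Overlaps, distances and medians were computed in Python (version 3.11.15) with pandas 2.3.3, numpy 2.4.6 and scipy 1.17.1, and drawn with matplotlib 3.10.9. Code that counts overlaps was tested on simulated data with planted splits. A peak's centre is the midpoint of its interval, starts are printed 1-based, and the sex chromosomes were left out. Binomial intervals are Clopper-Pearson and those of medians come from order statistics. The rule, the regions and the settings were chosen with earlier results of these data known. Regions named were the members over 3 NPC peaks, the 10 with the highest lower NPC score, 5 each by largest distance, smallest distance, unequal scores and width, and 5 of the converse class. The gene table at hand is on another build (GRCm38), so no genes were assigned.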

Additional observations from a re-analysis of the deposited data

How the results depend on the processing

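Of the 65 values recomputed under another setting, 50 stayed inside the main 95% interval (medians, shares) or within 1.5 times (counts). These values are not independent. The settings that required 50% of a peak inside, or its centre inside, gave identical values. Lists cut to equal length left 403 members with the same medians. The number of members was 365 when at least 50% of each NPC peak, or its centre, had to lie inside the ESC peak, 374 with ESC peaks narrowed by 140 bp, the difference between the lists' median widths, 380 with the upper 50% of the ESC list by score, 277 with NPC peaks under 50 bp apart joined, 407 with the sex chromosomes and 382 without chromosome 15. With only the higher-scoring 50% of NPC peaks it fell to 149, with a median width of 1347 bp, an ESC score of 2291, a distance of 649 bp and a score balance of 0.597; only pairs of stronger NPC peaks are left there by construction. With joined NPC peaks the median width was 1273 bp and the distance 629.5 bp, and with narrowed ESC peaks the width was 1100 bp and the NPC centres lay 27.7% of the ESC width from the ESC centre, against 24.7%. The 36 NPC peaks over several ESC peaks became 16 with 50% of the ESC peak or its centre inside, 15 with the upper 50% of the ESC list and 19 with narrowed ESC peaks. Narrowing trims the ends of ESC peaks and cannot split a joined one, so it could only lower both counts. It does not test the width difference between the lists. The share of close NPC pairs within 1 ESC peak was 57.0% for gaps under 200 bp and 59.9% where both NPC peaks were in the upper 50% of the list, against 40.6%. The planned search for the CTCF motif was not run, because no mm9 sequence was used here. No paired analysis was possible because each cell type had 1 library, and no library could be left out.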
